A study of Mus musculus with 15 samples.

Results

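Astroglia are the support cells of the brain, and 33 genes that mark them or the Bergmann glia of the cerebellum were followed here through granule neuron development and medulloblastoma. The genes were listed by name, and all 33 of 33 were found among the 21889 genes counted. RNA-seq of polyadenylated RNA had been done on 15 libraries of mouse cerebellar cells, 3 in each of 5 groups. The groups at E15.5 (embryonic days) and at P1, P7 and P14 (postnatal days) are labelled as granule neuron precursors, the dividing cells that form the external granular layer. Mice at P1, P7 and P14 were wild type, whereas the E15.5 mice carried Math1-GFP, a reporter named after the older symbol of the granule lineage gene Atoh1. The group MB holds medulloblastoma cells, from a tumour of the cerebellum, of mice heterozygous for Ptch1, the receptor that restrains Sonic hedgehog signalling; no age is given for them. All cells were enriched by fractionation on Percoll, a density medium, and lysed directly. Age and genotype label changed together between E15.5 and the later groups and cannot be told apart there. Between MB and the precursor groups, Ptch1 genotype and tumour state changed together, with the age of MB not given, and these cannot be told apart either.

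Astrocytes take up glutamate and potassium released by neurons, are coupled to each other through gap junctions, and wrap blood vessels with endfeet rich in water channels. Bergmann glia are the radial astroglia of the cerebellar cortex: their fibres span the molecular layer, guide migrating granule neurons inward, and cover the synapses of Purkinje cells. Both kinds of cell mature around and after birth in rodents. Granule neuron precursors arise from another germinal zone, the rhombic lip, and are not known as a main source of the transporters, connexins and water channels listed here.

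Library totals ran from 12597472 to 43443132 counts in genes, and 15818 to 17286 genes had at least 1 count. Levels are given as CPM, read counts scaled to the TMM-adjusted library size, and each group has n = 3. Changes are log2 ratios from edgeR's quasi-likelihood test, printed as change ± standard error (SE), and a gene was called at an adjusted p (FDR) under 0.05 across all 15259 genes tested. The labels do not say whether replicates came from separate animals or pools, so the p-values measure only the spread between these libraries. Several libraries differed from the others of their group. On the first principal component P1 replicates 1, 2 and 3 lay at 14.5, 51.7 and 68.8. Replicate 1 lay farthest from the other P1 libraries, and replicate 3 lay nearest to P14 at 83.4 to 90.2. P1 replicate 3 was the highest of the P1 libraries in 25 of the 33 astroglial genes, a count that was not set against all genes. MB replicate 1 differed from the other MB libraries by a chi-square per gene of 224 and 255, against 36.5 between those, and E15.5 replicate 3 from the other E15.5 libraries by 164 and 168, against 17.6. In these libraries 44.6% and 42.2% of the records were not uniquely aligned, compared with 22.9% to 32.5% in the other 13. The 8 markers of the granule lineage summed to 2916 to 7045 CPM over the libraries, with Gabra6 at 0 in all E15.5 libraries. Atoh1 averaged 129 CPM at E15.5, 11.9 at P14 and 280 in MB. In MB against P7, Atoh1 and Barhl1 were called higher, and Pax6, Neurod1, Cntn2 and Gabra6 lower, with a median of -1.17 for the 8. Of all genes, 13.7% were called higher there and 20.7% lower.

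Most astroglial genes were low at E15.5, rose by P1, and had their highest mean at P14. At E15.5 only 20 of the 33 averaged at least 5 CPM, against 32 at P1 and P7, 33 at P14 and 30 in MB. The sum over the 33 genes was 1853 to 2864 CPM at E15.5, 7438 to 11305 at P1, 6072 to 10738 at P7, 10906 to 13688 at P14 and 5327 to 6963 in MB. From E15.5 to P1, 31 members rose and none fell, with Vim and Nes not called, while 25.4% of all genes tested were called higher and 20.9% lower. Without P1 replicate 3 the count was 30, as Cst3 was no longer called. The median member changed by 4.10 on the log2 scale, against 0.03 for all genes. All 33 differed among the 4 ages, with FDR from 2.83e-07 to 0.00404, against 55.7% of all genes. The group mean peaked at P14 in 24 members, at P1 in 4 (Gja1, Fabp7, Aldh1l1 and Tnc), in MB in 4 (Slc1a2, Nes, S100b and Ndrg2) and at E15.5 in Vim alone. In bulk samples such as these, fewer cells of a type and less RNA per cell cannot be told apart.

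**Figure D1:**
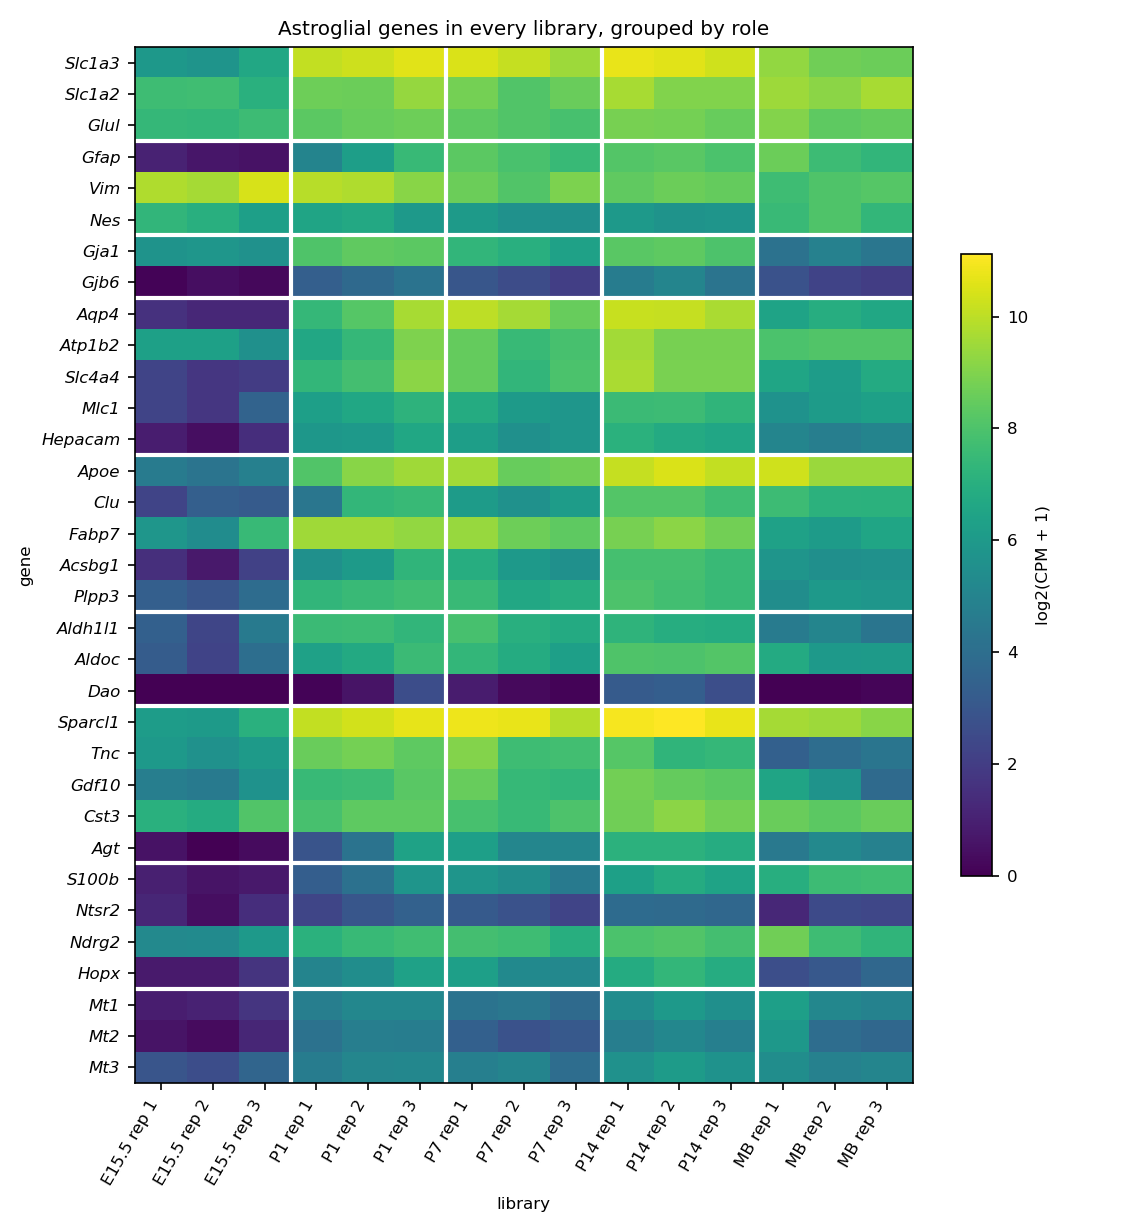
Each row is 1 astroglial gene and each column 1 library, coloured by log2(CPM + 1), with white lines between the 9 role groups and between the 5 groups of 3 libraries. The E15.5 columns are dark for most rows but bright for Vim, the P14 columns are the brightest, and the MB columns are bright for Apoe and Slc1a2 but dark for Tnc, Gja1 and Hopx.

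Fewer members were called between postnatal ages. All 3 P7 libraries belong to a set of 6 in which the deposited table counts overlapping genes differently, and all P1 and P14 libraries to the other set. Between P7 and either age the counting and the age therefore cannot be told apart. For the members, the gene to transcript ratio differed between the sets by only -0.08 to 0.09 (log2). MB replicate 1 is in the set of P7, and MB replicates 2 and 3 are in the other. The transcript table gave 2 lower calls from P1 to P7, without Gjb6, and 9 higher calls from P7 to P14. Between P1 and P7 no member rose and 3 fell, namely Gja1, Gjb6 and Vim, with 1.40% of all genes called higher and 1.74% lower. Without P1 replicate 3, 4 members were called higher at P7 than at P1: Gfap by 2.23, Aqp4 by 1.70, Agt by 2.00 and S100b by 1.65 on the log2 scale. Leaving out P1 replicate 2 or P7 replicate 2 left no lower call. Between P7 and P14, 9 members rose and none fell, with 5.81% of all genes called higher and 4.51% lower, and the median member changed by 1.12. The counts of 0, for lower members from E15.5 to P1 and from P7 to P14 and for higher members from P1 to P7, were also 0 with DESeq2, and at an unadjusted p under 0.05 in edgeR they were 0, 0 and 1 (Gfap). The 9 were both connexins, Apoe, Clu, Dao, Cst3 and the 3 metallothioneins. That count was 2 to 6 when any 1 library of the pair was left out, and Gja1 and Gjb6 were called each time. In 22 members all P14 libraries lay above all P7 libraries, and in none did they lie below, which held for 24.9% and 21.4% of all genes tested. From E15.5 to P14, 31 members rose and 2 fell, Vim and Nes, against 26.7% and 24.2% of all genes.

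Markers of several other cells moved with the astroglial genes, and their part in the results was not tested. The 9 vascular and mural markers summed to 26.6 to 60.3 CPM at E15.5, 714 to 1135 at P1 and 542 to 728 at P7. Their sum was 1382 to 1505 CPM at P14 and 31.5 to 46.7 in MB. All 9 rose from E15.5 to P1, against 25.4% of all genes. The 10 oligodendrocyte lineage markers went from 96.5 to 121 CPM at E15.5 to 642 to 4300 at P1, where P1 replicate 3 held the highest value, to 1089 to 2182 at P7 and to 6669 to 7201 at P14. Choroid plexus markers, led by Ttr, ranged from 96.1 to 379 CPM at E15.5 and from 406 to 10480 at P1. They ranged from 51.8 to 2021 at P7 and from 5176 to 8563 at P14. In all 6 genes the P14 libraries lay above all P7 libraries, as in 24.9% of all genes tested. The 6 GABAergic interneuron markers summed to 553 to 663 CPM at E15.5, 336 to 400 at P1 and 410 to 677 at P7. Their sum was 263 to 356 CPM at P14 and 320 to 374 in MB. Nearly all of the MB sum came from Lhx1, with 9306, 13021 and 9295 unscaled reads in replicates 1, 2 and 3. Gad1, the next highest of the list there, had 57, 63 and 24. From E15.5 to P1, 5 of the 6 fell and 1 rose, with a median of -1.22, against 20.9% and 25.4% of all genes. The oligodendrocyte and microglial sums were lowest in the E15.5 libraries. Among the marker genes of these lists none was at 0 throughout a group other than the granule neuron gene Gabra6 at E15.5.

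**Figure D2:**
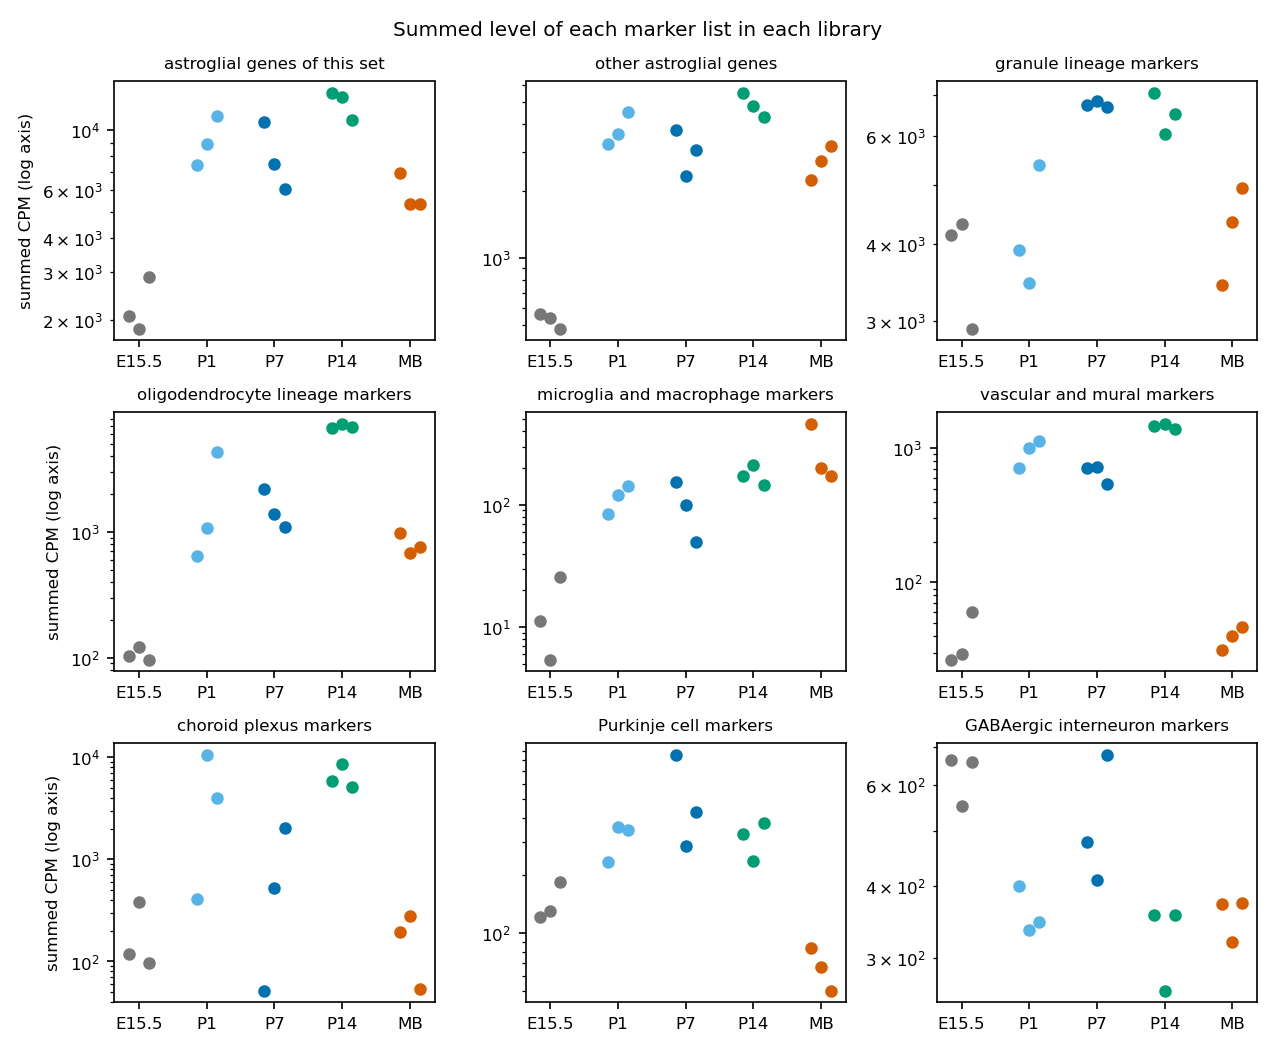
Points are the summed CPM of each marker list in each library on log axes, 3 libraries per group. Astroglial, oligodendrocyte, microglial and vascular sums are low at E15.5 and higher at P1, whereas in MB the vascular sum is back at 31.5 to 46.7 CPM and the microglial sum reaches 456 CPM.

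The glutamate handling genes rose from E15.5 to P1 but parted in the tumour cells. Slc1a3 encodes GLAST, the glutamate transporter most abundant in Bergmann glia, and stood at 59.8, 53.0 and 102 CPM at E15.5, 1106, 1247 and 1558 at P1, 1445, 1139 and 710.5 at P7, 1717, 1561 and 1269 at P14, and 638, 416 and 388 in MB. All postnatal libraries lay far above E15.5, and all MB libraries lay below P7 and P14 but above E15.5. Slc1a3 rose by 4.19 ± 0.34 (FDR 5.07e-07) from E15.5 to P1 and fell by 1.19 ± 0.30 (FDR 0.00638) in MB against P7. Slc1a2 encodes GLT-1, the main glutamate transporter of forebrain astrocytes, and was at 199.7, 208 and 131 CPM at E15.5, 408, 391 and 652 at P1, 441, 274 and 386 at P7, 800.0, 511 and 512 at P14, and 716, 572 and 806 in MB. Its MB libraries all exceeded P7 and overlapped P14. The change in MB was 0.93 ± 0.27 (FDR 0.0151) against P7 and 0.20 ± 0.27 (FDR 0.561) against P14, and the call against P7 was lost without P7 replicate 2 or without MB replicate 3. Glul, glutamine synthetase, turns the glutamate taken up into glutamine and measured 169, 163 and 198 CPM at E15.5, 320.5, 370.4 and 401 at P1, 332, 273 and 235 at P7, 458, 449 and 370.1 at P14, and 533, 328 and 355 in MB. It varied over a narrower range than the transporters, and its MB libraries overlapped P14. Against P7 it missed the threshold at 0.53 ± 0.20 (FDR 0.0539), and was called higher with DESeq2 (0.56).

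The 3 intermediate filament genes each followed a different course. Gfap, the filament of mature and reactive astrocytes, was at 1.09, 0.585 and 0.473 CPM at E15.5, 31.4, 74.0 and 177 at P1, 316, 243 and 179 at P7, 282, 310.1 and 248 at P14, and 391, 198 and 158 in MB. Only 50 reads fell on Gfap over the 3 E15.5 libraries, and the P1 libraries spread widely, with replicate 3 highest. The P14 level was 410.0 times that of E15.5, with a 95% interval of 311 to 553 that covers counting error only. In MB the change of Gfap against P7 was 0.01 ± 0.47 (FDR 0.987); without MB replicate 1 the change was -0.47 and without P7 replicate 3 it was -0.17. Vim, vimentin, is the filament of radial glia and of many other immature cells, and was at 883, 779 and 1373 CPM at E15.5, 982, 876 and 560.0 at P1, 391, 271 and 481 at P7, 333, 393 and 353 at P14, and 199, 266 and 291 in MB. Its group mean was highest before birth and lower at each later stage, but its libraries overlapped between E15.5 and P1, between P7 and P14, and between P7 and MB. From E15.5 to P1 the change was -0.33 ± 0.27 (FDR 0.339) and from P7 to MB -0.59 ± 0.27 (FDR 0.107). Vim fell by 1.49 ± 0.28 (FDR 4.23e-04) from E15.5 to P14, and the fall from P1 to P7, 1.08 ± 0.27 (FDR 0.0462), was lost when any of 5 of the 6 libraries was left out. Nes, nestin, is a filament of neural stem and progenitor cells and was at 158, 128 and 76.1 CPM at E15.5, 88.9, 103 and 61.8 at P1, 65.2, 48.3 and 47.5 at P7, 61.2, 51.6 and 54.0 at P14, and 183, 266 and 165 in MB. All MB libraries exceeded every precursor library. Nes fell by 1.12 ± 0.27 (FDR 0.00291) from E15.5 to P14, rose by 1.93 ± 0.27 (FDR 6.18e-05) in MB against P7, and was the only member called higher in MB than at P14, by 1.88 ± 0.27 (FDR 4.78e-05), where 22.9% of all genes were called higher.

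**Figure D3:**
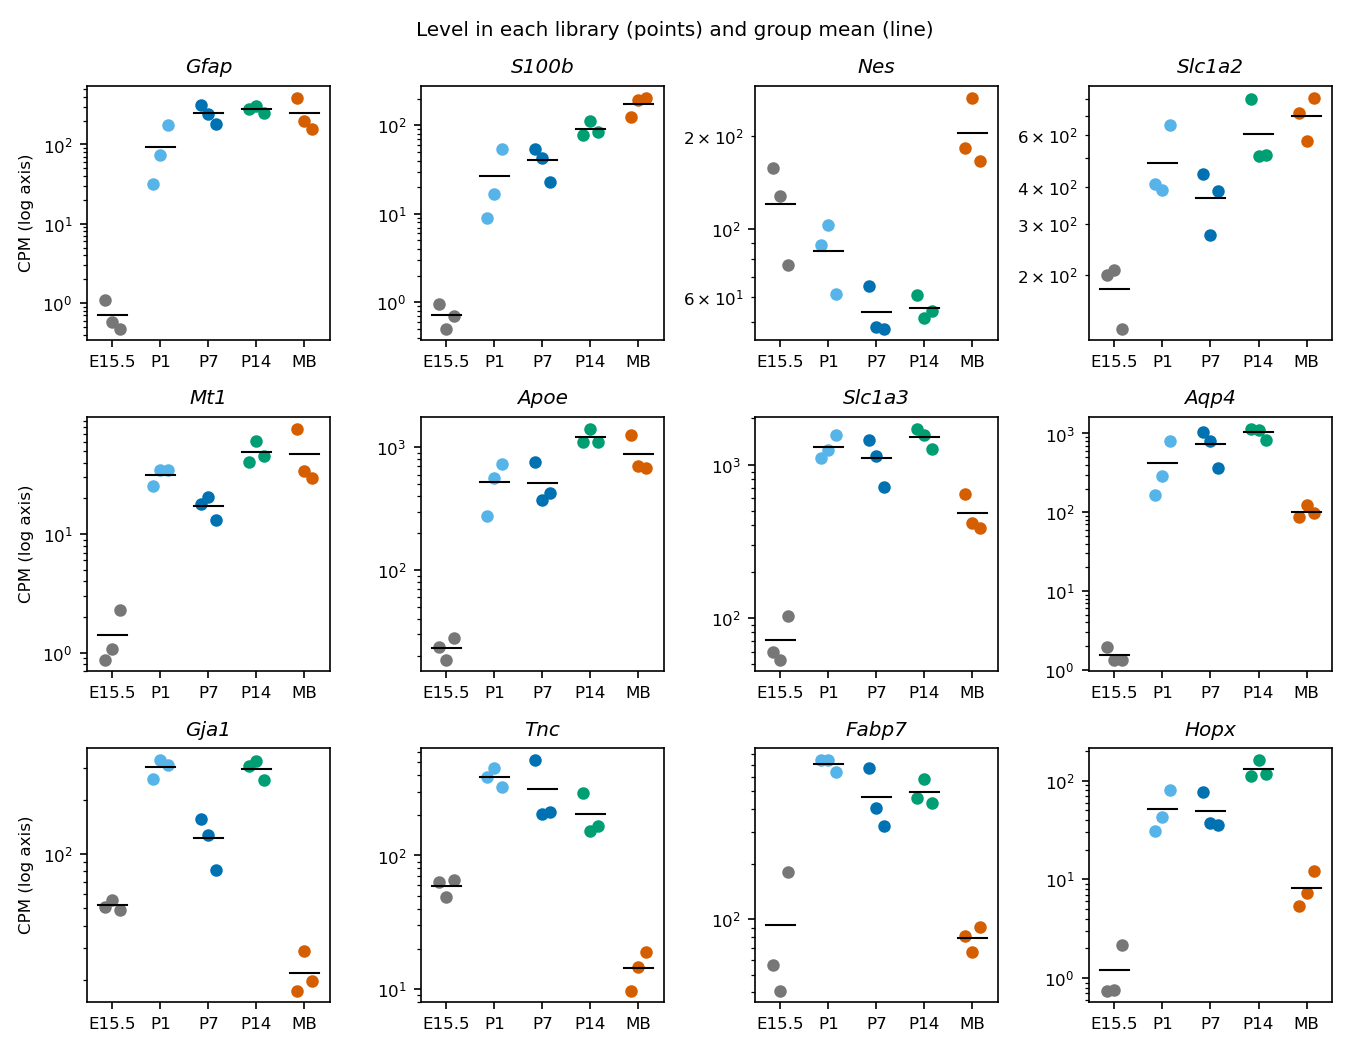
Each panel shows the CPM of 1 gene in every library on a log axis, with the group mean as a line. For S100b, Nes, Slc1a2 and Mt1 the MB points lie above the P7 points and for Gfap and Apoe they overlap them, whereas for Slc1a3, Aqp4, Gja1, Tnc, Fabp7 and Hopx they lie below them.

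The start region of Gfap is printed because this gene had one of the steepest rises of the set and because STAT3, a known driver of Gfap in astrocytes, binds a short palindrome. Gfap (ENSMUSG00000020932) lies on the minus strand, with its main transcript at chr11:102748650-102758445 of mm9, the build of the deposited tables. The window runs from 250 bases before to 50 after a RefSeq start at chr11:102897151-102897450 of GRCm38.p6, on the minus strand and 5′ to 3′, and capitals mark the only match to TTCNNNGAA.
Gfap: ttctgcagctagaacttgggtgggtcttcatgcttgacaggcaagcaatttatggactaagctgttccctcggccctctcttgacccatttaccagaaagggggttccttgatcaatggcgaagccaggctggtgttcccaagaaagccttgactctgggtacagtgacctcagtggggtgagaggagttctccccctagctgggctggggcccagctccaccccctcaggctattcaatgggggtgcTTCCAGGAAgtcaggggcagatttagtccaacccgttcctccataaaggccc
Across all 32851 promoter windows, 8.30% held this motif, as did 6 of the 39 windows of the 29 members found there, so the match is a description of these letters.

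Both gap junction genes rose after birth, were lower at P7 than at P1 and P14, and were called lower in the tumour cells than at P14. In the last comparison 27.2% of all genes were called lower. Gja1, connexin 43, couples astrocytes and was at 51.0, 55.6 and 49.0 CPM at E15.5, 262, 336 and 314 at P1, 158, 127 and 81.3 at P7, 308, 327 and 259 at P14, and 17.3, 28.8 and 19.6 in MB. The P7 libraries lay below all P1 and P14 libraries, and the MB libraries lay below every other library of the study. Gja1 fell by 1.31 ± 0.23 (FDR 0.014) from P1 to P7, rose by 1.29 ± 0.23 (FDR 0.00873) from P7 to P14, and fell by 2.48 ± 0.24 (FDR 2.13e-06) in MB against P7. Gjb6, connexin 30, appears in mature astrocytes and was at 0.0872, 0.334 and 0.184 CPM at E15.5, 9.36, 12.8 and 17.8 at P1, 6.81, 4.97 and 3.24 at P7, 24.6, 32.1 and 18.6 at P14, and 6.07, 3.71 and 3.04 in MB. It had only 13 reads over the 3 E15.5 libraries. The fall from P1 to P7, 1.41 ± 0.36 (FDR 0.0481), was lost when any of 5 of the 6 libraries was left out. Gjb6 rose by 2.32 ± 0.37 (FDR 0.00653) from P7 to P14. In MB it overlapped P7, with -0.23 ± 0.36 (FDR 0.666), but fell by 2.55 ± 0.38 (FDR 5.46e-05) against P14.

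Among the 5 genes of water and ion transport and of the endfoot, 3 fell in MB against P7 and none rose. Of all genes, 20.7% were called lower in that comparison and 13.7% higher. Aqp4, the water channel of astrocytic endfeet, was at 1.96, 1.34 and 1.34 CPM at E15.5, 168, 286 and 807 at P1, 1038, 796 and 369 at P7, 1154, 1113 and 836 at P14, and 86.0, 122 and 97.2 in MB. It was close to absent at E15.5 with 112 reads in all, P1 replicate 3 was far above the other P1 libraries, and MB lay well below every P7 and P14 library. Aqp4 rose by 9.38 ± 0.66 (FDR 9.44e-08) from E15.5 to P14 and fell by 2.85 ± 0.48 (FDR 2.94e-04) in MB against P7. Slc4a4, a sodium bicarbonate cotransporter, was at 3.88, 2.42 and 2.89 CPM at E15.5, 161, 219 and 576 at P1, 361, 161 and 252 at P7, 837, 465 and 469 at P14, and 92.2, 69.9 and 110.0 in MB. Its MB libraries sat below P7 and above E15.5. The fall against P7 was 1.51 ± 0.42 (FDR 0.0113) and was lost without P7 replicate 1. Hepacam, the adhesion protein GlialCAM, fell by 0.98 ± 0.31 (FDR 0.0233), a call lost without P7 replicate 1 or MB replicate 2. Atp1b2, the glial subunit of the sodium pump, was at 78.0, 78.5 and 46.8 CPM at E15.5, 99.3, 166 and 491 at P1, 361, 179 and 232 at P7, 767, 454 and 460.0 at P14, and 247, 271 and 275 in MB. It was already well above its floor at E15.5, and the 3 MB libraries were close to each other and within the range of P7. The change against P7 was 0.04 ± 0.45 (FDR 0.959). Mlc1, a membrane partner of Hepacam, changed by -0.27 ± 0.41 (FDR 0.652) and was called lower only against P14, by 1.47 ± 0.42 (FDR 0.00847).

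Of the 5 lipid genes, 2 fell in MB against P7 and none rose, with 20.7% of all genes called lower and 13.7% higher. Apoe, the lipid carrier made by astrocytes and also by microglia, was at 23.5, 18.6 and 27.9 CPM at E15.5, 276, 563 and 729 at P1, 759, 370.3 and 422 at P7, 1114, 1424 and 1099 at P14, and 1261, 702 and 685 in MB. Its MB libraries overlapped both P7 and P14, with replicate 1 highest. Apoe changed by 0.77 ± 0.35 (FDR 0.107) in MB against P7 and, without MB replicate 1, by 0.42; without P7 replicate 1 it was called higher, at 1.19. The 8 microglia and macrophage markers summed to 171, 201 and 456 CPM in MB, also highest in replicate 1, against 50.1 to 154 at P7; 5 of the 8 were called higher in MB, and their part in the Apoe level was not tested. Clu, clusterin, another secreted lipid carrier, was at 3.88, 9.27 and 8.12 CPM at E15.5, 19.4, 163 and 180.5 at P1, 67.9, 48.0 and 68.7 at P7, 279, 284 and 208 at P14, and 194, 141 and 136 in MB. All MB libraries exceeded all P7 libraries and lay below P14. The change against P7 was 1.35 ± 0.53 (FDR 0.0618), and DESeq2 called it at 1.37. Fabp7, the brain fatty acid binding protein of radial and Bergmann glia, was at 56.5, 40.8 and 181 CPM at E15.5, 745, 739 and 641 at P1, 669.9, 404 and 324 at P7, 462, 587 and 431 at P14, and 81.5, 66.7 and 90.5 in MB. It peaked at P1, and the MB libraries lay below all postnatal libraries and among the E15.5 ones, where replicate 3 was the highest. Fabp7 fell by 2.55 ± 0.44 (FDR 3.39e-04) in MB against P7. Plpp3, a lipid phosphate phosphatase, fell by 1.32 ± 0.27 (FDR 0.00151), and Acsbg1, an acyl-CoA synthetase, changed by -0.64 ± 0.45 (FDR 0.305).

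Of the 3 metabolic enzymes, 1 fell in MB against P7 and all 3 against P14, with 20.7% and 27.2% of all genes called lower. Aldh1l1, a folate enzyme used as a pan-astrocyte marker, was at 9.51, 4.01 and 22.4 CPM at E15.5, 187, 193 and 159.7 at P1, 234, 128 and 109 at P7, 150.1, 122 and 114 at P14, and 23.7, 32.7 and 18.9 in MB. Every postnatal library exceeded every E15.5 and MB library, and MB overlapped E15.5. Aldh1l1 fell by 2.65 ± 0.45 (FDR 2.96e-04) against P7. Aldoc, the brain aldolase that is also found in Purkinje cells, was at 8.51, 3.76 and 14.9 CPM at E15.5, 81.8, 106 and 189 at P1, 162, 112 and 76.7 at P7, 268, 257 and 282 at P14, and 111, 62.9 and 66.1 in MB. It was highest at P14 and overlapped P7 in MB, at -0.55 ± 0.41 (FDR 0.33). Purkinje cell markers summed to 285 to 850 CPM at P7 and 50 to 83.3 in MB, and their part in Aldoc was not tested. Dao, D-amino acid oxidase of cerebellar astroglia, had no read in any E15.5 library and 152 reads over the P1 libraries, at least 48.9-fold higher, taking 3 counts over the group as the floor. Of those reads 137 were in P1 replicate 3, and the 15 of the other P1 libraries gave at least 7.43-fold. At P14 it was at least 184-fold higher than at E15.5. Only 3 reads fell on Dao in MB against 37 at P7, a ratio of 0.0858 with a counting interval of 0.0169 to 0.271, and the change was -3.29 ± 1.64 (FDR 0.143).

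The secreted and matrix genes held the largest fall in MB against P7. Tnc, tenascin C, a matrix glycoprotein of developing and Bergmann glia, was at 63.3, 48.9 and 65.0 CPM at E15.5, 384, 449 and 324 at P1, 523, 205 and 212 at P7, 292, 152 and 166 at P14, and 9.68, 14.6 and 19.0 in MB. Its group mean was highest at P1, and in MB it was lower than in any library of the 4 ages. Tnc fell by 4.44 ± 0.41 (FDR 1.04e-06) in MB against P7, to 0.0453 of the P7 level. Gdf10, a BMP family factor that marks Bergmann glia, was at 26.3, 22.7 and 49.4 CPM at E15.5, 181, 198 and 312 at P1, 369, 172 and 157 at P7, 434, 362 and 319 at P14, and 89.1, 50.9 and 13.4 in MB. The MB libraries were spread from 13.4 to 89.1 CPM, all below P7. Gdf10 fell by 2.19 ± 0.53 (FDR 0.00434). Sparcl1, hevin, an astrocyte factor that promotes synapse formation, was at 70.5, 66.1 and 132 CPM at E15.5, 1105, 1315 and 1679 at P1, 1827, 1729 and 937 at P7, 2009, 2216 and 1717 at P14, and 775, 706 and 556 in MB. Its MB libraries lay below P7, and Sparcl1 fell by 1.14 ± 0.30 (FDR 0.00813). Cst3, cystatin C, a secreted protease inhibitor also made by microglia, was at 131, 112 and 270.2 CPM at E15.5, 232, 323 and 329.8 at P1, 231, 177 and 256 at P7, 415, 573 and 435 at P14, and 380.0, 313 and 383 in MB. The MB libraries were all above P7 and all below P14. Cst3 changed by 0.69 ± 0.28 (FDR 0.0722) against P7 and was called higher with DESeq2 at 0.72, and the part of the higher microglia sum in it was not tested. Agt, angiotensinogen, had 20 reads over the E15.5 libraries, rose by 8.91 ± 0.98 (FDR 3.96e-06) to P14, and changed by -0.75 ± 0.64 (FDR 0.398) in MB against P7.

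Among the signalling proteins and regulators, S100b and Hopx moved in opposite directions in MB. S100b, a calcium binding protein of astrocytes and some oligodendrocyte lineage cells, was at 0.96, 0.501 and 0.709 CPM at E15.5, 8.97, 16.6 and 54.6 at P1, 54.6, 43.2 and 22.9 at P7, 77.7, 112 and 85.1 at P14, and 124, 195 and 206 in MB. Its group mean climbed with each age, although P1 and P7 overlapped, and all MB libraries exceeded all precursor libraries. S100b rose by 2.12 ± 0.50 (FDR 0.00371) in MB against P7, while against P14 the change was 0.93 ± 0.48 (FDR 0.121). The oligodendrocyte lineage sum was 680 to 974 CPM in MB and 1089 to 2182 at P7. Within that list Olig2 and Pdgfra rose, by 1.21 ± 0.41 (FDR 0.0316) and 1.05 ± 0.32 (FDR 0.0191), although their MB and P7 libraries overlapped. Olig1 changed by 0.83 ± 0.45 (FDR 0.175). Sox10 fell by 1.25 ± 0.38 (FDR 0.0187) and the myelin gene Mbp by 3.63 ± 0.70 (FDR 8.29e-04). In all, 2 of the 10 rose and 7 fell, against 13.7% and 20.7% of all genes. The part of these cells in the S100b level was not tested. Hopx, a homeodomain protein of Bergmann glia and radial progenitors, was at 0.742, 0.752 and 2.15 CPM at E15.5, 31.2, 42.5 and 81.2 at P1, 76.7, 37.2 and 35.8 at P7, 112, 164 and 118 at P14, and 5.32, 7.35 and 12.1 in MB. It reached its highest values at P14 and was lower in MB than in any postnatal library. Hopx fell by 2.60 ± 0.45 (FDR 3.89e-04) against P7. Ndrg2, an astrocyte protein of stress and growth signalling, was at 36.6, 39.2 and 61.6 CPM at E15.5, 135, 178 and 209.7 at P1, 218, 199 and 123 at P7, 251, 274 and 218 at P14, and 418, 202 and 153 in MB. MB replicate 1 was the highest library of all, and the other MB libraries lay within P7. Ndrg2 changed by 0.52 ± 0.33 (FDR 0.252), and by -0.02 without MB replicate 1. Ntsr2, a neurotensin receptor, changed by -0.78 ± 0.48 (FDR 0.239) and was called lower only against P14.

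The metallothioneins, small metal binding proteins, rose together from E15.5 to P1 and from P7 to P14, and 2 of the 3 rose in MB against P7. Of all genes, 25.4%, 5.81% and 13.7% were called higher in these comparisons. Mt1 was at 0.872, 1.09 and 2.29 CPM at E15.5, 25.7, 34.9 and 34.5 at P1, 17.9, 20.5 and 13.2 at P7, 40.8, 61.2 and 45.5 at P14, and 77.5, 34.2 and 29.8 in MB. Its P7 libraries were the lowest after birth, and all MB libraries exceeded P7. Mt1 rose by 1.45 ± 0.37 (FDR 0.00601) in MB against P7, and by 0.89 without MB replicate 1. Mt2 was at 0.48, 0.251 and 1.26 CPM at E15.5, 17.4, 25.7 and 25 at P1, 9.59, 5.93 and 7.51 at P7, 25.9, 34.8 and 26.9 at P14, and 59.3, 14.6 and 12.2 in MB. MB replicate 1 was the highest library of all for Mt2, and the other MB libraries lay above P7 but below P14. Mt2 rose by 1.90 ± 0.52 (FDR 0.0101), a call lost without MB replicate 1, at 0.81. Mt3, the brain form, was at 6.67, 5.26 and 11.4 CPM at E15.5, 24.2, 33.4 and 34.6 at P1, 26.7, 31.4 and 14.6 at P7, 47.7, 67.6 and 50.3 at P14, and 43.1, 28.8 and 32.2 in MB. Its MB and P7 libraries overlapped, and the change was 0.52 ± 0.31 (FDR 0.218). All 3 rose from P7 to P14, by 1.51 for Mt1, 1.93 for Mt2 and 1.19 for Mt3. The calls of Mt2 and Mt3 were lost when any 1 library of the pair was left out. That of Mt1 was kept only without P14 replicate 1. The genes are close copies of each other, so reads could in part be shared or dropped as not unique.

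The 3 metallothionein genes lie side by side on the plus strand of chromosome 8, with transcripts at chr8:96676507-96678048 for Mt3, chr8:96696518-96697467 for Mt2 and chr8:96702989-96704225 for Mt1 in mm9. Their start windows are shown because these neighbours rose together between P7 and P14. They come from RefSeq in GRCm38.p6, at chr8:94152357-94152656 for Mt3, chr8:94172368-94172667 for Mt2 and chr8:94178839-94179138 for Mt1, each 5′ to 3′ from 250 bases before to 50 after the start. Capitals mark the core of the metal response element, TGCACNC or TGCGCNC on either strand, bound by the zinc sensor MTF1.
Mt1: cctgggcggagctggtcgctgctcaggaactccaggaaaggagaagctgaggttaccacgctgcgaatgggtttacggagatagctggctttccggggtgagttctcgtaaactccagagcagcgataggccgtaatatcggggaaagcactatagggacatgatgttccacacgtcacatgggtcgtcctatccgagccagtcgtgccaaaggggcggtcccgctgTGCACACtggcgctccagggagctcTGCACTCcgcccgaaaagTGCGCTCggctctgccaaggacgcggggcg
Mt2: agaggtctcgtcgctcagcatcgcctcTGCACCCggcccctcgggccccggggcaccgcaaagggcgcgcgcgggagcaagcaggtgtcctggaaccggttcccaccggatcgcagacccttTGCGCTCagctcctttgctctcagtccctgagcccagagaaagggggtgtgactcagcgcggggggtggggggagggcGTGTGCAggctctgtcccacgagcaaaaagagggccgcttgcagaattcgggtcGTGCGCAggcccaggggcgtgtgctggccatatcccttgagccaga
Mt3: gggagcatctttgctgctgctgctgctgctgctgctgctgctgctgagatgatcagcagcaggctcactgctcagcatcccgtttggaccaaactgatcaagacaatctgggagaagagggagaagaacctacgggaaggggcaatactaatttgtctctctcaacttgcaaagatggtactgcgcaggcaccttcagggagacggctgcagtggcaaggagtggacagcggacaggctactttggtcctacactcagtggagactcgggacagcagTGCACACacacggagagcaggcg
The Mt1 window held 3 cores, the Mt2 window 4 and the Mt3 window 1. Of all 32851 windows 25.7% held at least 1 core, 1.97% at least 3 and 0.517% at least 4, and 11 of the 39 windows of members held at least 1. These counts describe the letters of 3 windows and were not tested.

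In the tumour cells as a whole, 13 of the 33 members met the rule used here for staying at or above the P7 level, and 12 were called lower. Against P7, 5 members were called higher (S100b, Nes, Mt2, Mt1 and Slc1a2) while 13.7% of all genes were, and 12 were called lower while 20.7% of all genes were. Another 8 were not called lower, had a change of 0 or above and averaged at least 5 CPM in MB: Clu, Apoe, Cst3, Glul, Ndrg2, Mt3, Atp1b2 and Gfap. The rule for these 8 was met by 31.9% of all genes, and that for the 13 together by 45.6%. Both are larger shares than among the 33 members. Gfap at 0.01 and Atp1b2 at 0.04 lay just inside that limit, and Gjb6 at -0.23 and Mlc1 at -0.27 just outside it. The 12 that fell were Tnc, Aqp4, Aldh1l1, Hopx, Fabp7, Gja1, Gdf10, Slc4a4, Plpp3, Slc1a3, Sparcl1 and Hepacam. All MB libraries lay above all P7 libraries in 7 members and below in 12, as they did for 17.7% and 23.9% of all genes. The median member changed by -0.59, against 0.02 for all genes. By role, both metallothioneins called by edgeR rose, whereas each edgeR call among connexins, endfoot genes, lipid genes, metabolic enzymes and secreted proteins was a fall. DESeq2 also called Clu and Cst3 higher.

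Against P14, only Nes was called higher and 19 members were called lower, with a median of -1.66, while 27.2% of all genes were lower. Both comparisons share the MB libraries, and these 19 held all 12 that fell against P7 and 7 more: Gjb6, Mlc1, Acsbg1, Aldoc, Dao, Agt and Ntsr2. All 3 MB libraries lay below all P14 libraries in 24 members and above them in 2, which held for 32.7% and 28.7% of all genes. Among the 13 that stayed high against P7, edgeR's test over all libraries called none lower against P14. Other settings did: DESeq2 called Atp1b2 (-1.08), the groups fitted alone Atp1b2, Clu (-0.70) and Mt3 (-0.66), and leaving out MB replicate 1 Mt2 (-1.12) and Mt3 (-0.85). Within 1 counting set, which also lacks MB replicate 1, Mt1 (-0.59), Mt2 (-1.09) and Mt3 (-0.83) were called lower. Against E15.5, all MB libraries lay above all E15.5 libraries in 25 members, against 26.6% of all genes, and below them in Vim, Gja1 and Tnc, against 26.0% of all genes. MB and E15.5 overlapped in Fabp7, Aldh1l1, Dao, Gdf10 and Ntsr2.

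**Figure D4:**
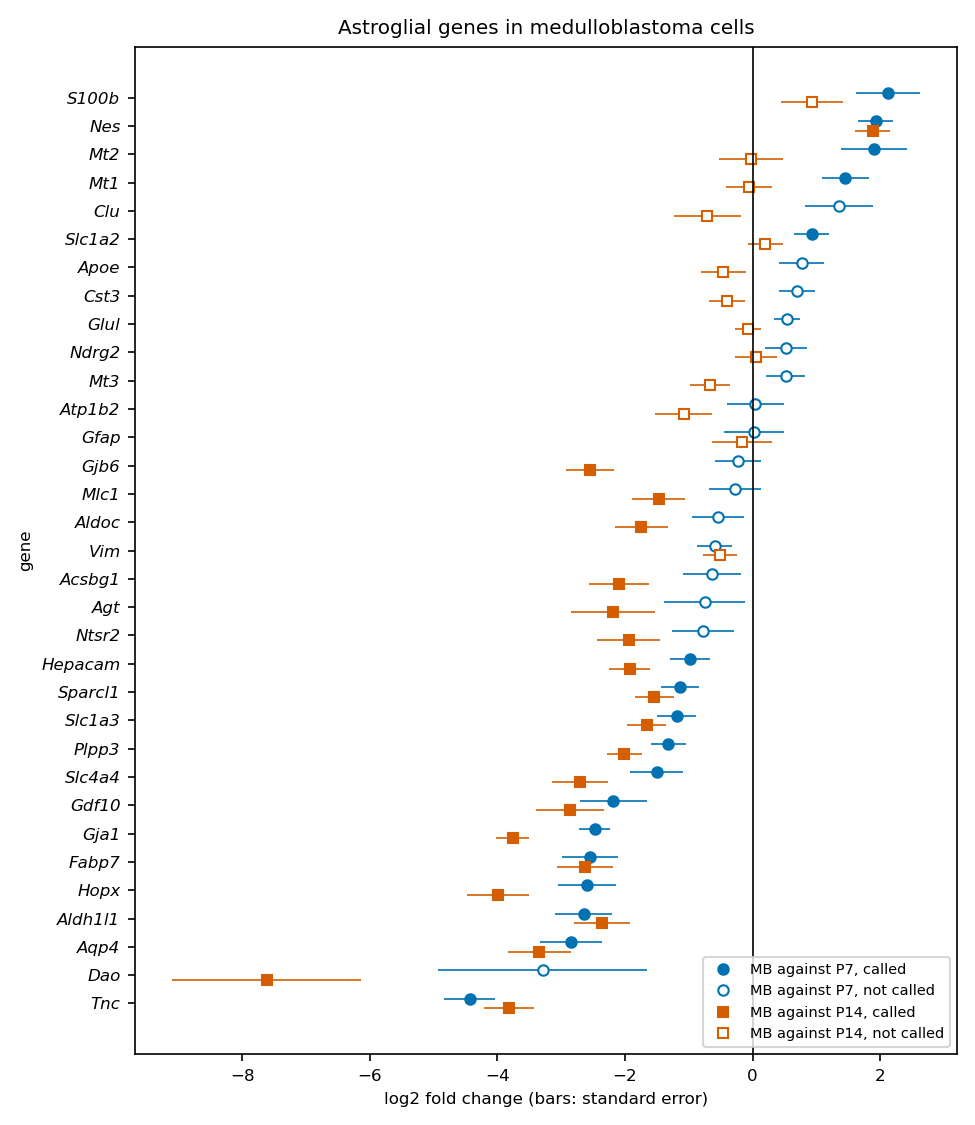
Points are the log2 fold change of each gene in MB against P7 (circles) and P14 (squares) with bars of 1 standard error, filled where called, and genes are sorted by the change against P7. S100b leads at 2.12 and Tnc is last at -4.44, and most squares lie to the left of their circles.

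The cells that accompany astroglia in tissue did not move as 1 block in MB. All 9 vascular and mural markers fell against P7, with a median of -3.70, and their sum was 31.5 to 46.7 CPM against 542 to 728 at P7. Of the 10 oligodendrocyte markers 7 fell and 2 rose, and 5 of the 8 microglia markers rose. Those 5 were Aif1, Tyrobp, C1qa, C1qb and C1qc, while Cx3cr1, Csf1r and P2ry12 were not called. The microglia sum of 171 to 456 CPM in MB overlapped that of P14, at 145 to 211. Of the 6 GABAergic interneuron markers 5 fell, with a median of -6.93, and of the 6 Purkinje cell markers 5 fell. Of the 8 granule lineage markers 4 fell and 2 rose. The 6 choroid plexus markers summed to 54.0 to 278 CPM in MB, against 51.8 to 2021 at P7 and 5176 to 8563 at P14. In MB 1 of the 6 was called lower against P7 and 4 against P14, where 27.2% of all genes were, and 0 were called higher in either. Among all genes tested, 20.7% were called lower in MB against P7 and 13.7% higher. MB replicate 1 was the highest MB library in 15 of the 33 astroglial genes, a count that was not set against all genes. The same library had the highest microglia sum. The part of these markers in the astroglial changes was not tested.

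The make-up of the astroglial RNA pool, compared per kilobase of transcript, changed with each stage. At E15.5, Vim made up 44.0% of the summed level per kilobase, Cst3 18.2% and Fabp7 9.77%, so these 3 genes held 72%. At P1 and P7 Fabp7 led with 22.3% and 17%, and at P14 Apoe led with 16.0%. In MB, Apoe made up 22.6% and Cst3 15.4%, while Fabp7 was down to 3.66%. S100b stood at 0.0490% at E15.5, 0.798% at P7, 1.13% at P14 and 4.51% in MB, where it ranked 5th. Over the 3 MB libraries its share ranged from 2.45% to 5.67%, above the highest P14 library at 1.25%. Beyond E15.5, the 3 leading genes of each group together held 42.5% of the pool at P1, then 42.4% at P7 and 38.8% at P14, against 46.0% in MB.

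**Figure D5:**
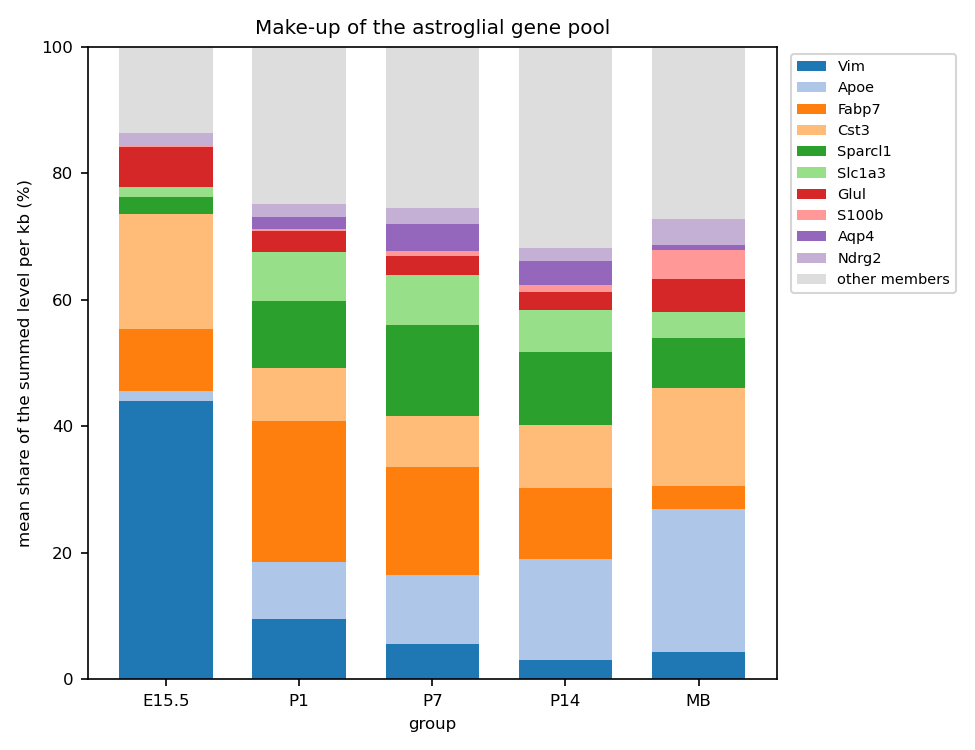
Stacked bars give the mean share of each gene in the summed CPM per kilobase of the 33 genes in each group of 3 libraries, and genes under 4% in every group are pooled in grey. Vim fills 44.0% of the E15.5 bar, Fabp7 is widest at P1, and Apoe and Cst3 are the widest bands of the MB bar.

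A second list of 24 astroglial genes was counted beside these. From E15.5 to P1, 23 of the 24 rose and none fell (0 lower also by DESeq2 and at an unadjusted p under 0.05 in edgeR), with a median of 3.53, against 25.4% of all genes called higher. In MB against P7, 3 rose and 8 fell, with a median of -0.63, against 13.7% and 20.7% of all genes. Slc6a11, the GABA transporter GAT-3 of astrocytes, rose by 1.92 ± 0.29 (FDR 1.25e-04), Daam2, a formin of Wnt signalling, by 0.77 ± 0.21 (FDR 0.0103), and Cspg5, a proteoglycan, by 0.58 ± 0.21 (FDR 0.0405). Slc6a11 averaged 67 ± 20.1 CPM at P7 and 254 ± 85.1 in MB (SD, n = 3). Ednrb, the endothelin receptor of Bergmann glia, averaged 471 ± 162 CPM at P7 and 45.3 ± 5.21 in MB, and fell by 3.38 ± 0.36 (FDR 4.29e-06). Mfge8, a secreted bridging protein, fell by 2.51 ± 0.44 (FDR 3.90e-04). Sox9, the glial fate factor, changed by 1.22 ± 0.49 (FDR 0.0656), and Hes5, a Notch target, by -0.04 ± 0.76 (FDR 0.977). Neither passed the test, and MB replicate 1 lay apart in both. Unscaled reads in MB replicates 1, 2 and 3 were 1020, 9133 and 7934 for Sox9 and 17, 864 and 449 for Hes5.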

How the data were processed

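Polyadenylated RNA of 15 libraries was sequenced by the submitters on a HiSeq 2500, per the labels. The authors deposited raw read counts per gene, and a second table of counts per transcript that also gives gene positions; the submitters' processing notes name Trimmomatic, TopHat, StringTie, HTSeq and mm9, with no versions or roles. Strand setting is not given in the sources used here. Between 39.5% and 55.4% of the records per library were counted in genes, and the 5 summary lines stayed out of every total. In 6 libraries (E15.5 replicates 1 and 3, all of P7, MB replicate 1) the gene table counts overlapping genes such as Tsnax differently, but the members' gene to transcript ratio differed between those and the other 9 libraries by only -0.08 to 0.09 (log2).

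The gene counts were scaled by TMM and fitted in edgeR 4.0.16 (R 4.3.3, limma 3.58.1) with the quasi-likelihood test over all 15 libraries, after filterByExpr with a minimum count of 10 and a minimum total of 15, leaving 10 residual degrees of freedom. FDR is the Benjamini-Hochberg adjusted p over the 15259 genes tested, with a threshold of 0.05. The fit was tested on simulated data. Level per kilobase used the length of each gene's transcript with the highest count. Counting intervals are at 95% and cover counting error only; 3 counts were the floor. Replicates differed by more than sampling noise, with a chi-square per gene of 17.1 to 255.

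Per-library values are given for members called higher in MB against P7 and the 8 largest falls among members averaging at least 5 CPM. They are also given for the 2 highest members of each role group and members called against most of their role group. Glul and Clu meet none of these rules and are given per library as well. Others are given as changes. From the second astroglial list Slc6a11, Daam2, Cspg5, Ednrb, Mfge8, Sox9 and Hes5 were named, although Hes5 was not among its largest changes. The members, lists and rules were chosen with earlier results of these data known. Alternatives were DESeq2 1.42.0, DESeq2 size factors in edgeR, no filter on low counts, the compared groups alone, a replicate block, the transcript table, 1 counting set only, and each library left out in turn. Tables of transcript start sites were not used. Promoter windows came from RefSeq, with 29 of 33 members matched.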

Additional observations from a re-analysis of the deposited data

How the results depend on the processing

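The counts of called members were recomputed under each alternative, and most stayed within 1.5 times the value reported. Exceptions were found in 6 counts. Lower calls from E15.5 to P1 numbered 0 to 1 when 1 library was left out, the 1 being Nes without E15.5 replicate 3. From P1 to P7 the higher calls numbered 0 to 4 when 1 library was left out, and the lower calls 0 to 3, with 1 lower call under the replicate block. From P7 to P14 the higher calls were 16 with DESeq2, 20 with these groups fitted alone and 2 to 6 with 1 library left out. In MB against P7 the higher calls were 8 with DESeq2 and 4 to 7 with 1 library left out; against P14 they were 2 with the groups fitted alone, S100b joining Nes. Among single genes in MB against P7, none of them called, the sign turned for 5. With 1 library left out Gfap ranged from -0.47 to 0.27 (-0.009 under the replicate block), Gjb6 from -0.57 to 0.091, Atp1b2 from -0.17 to 0.41, Mlc1 from -0.47 to 0.14 and Ndrg2 from -0.019 to 0.78. The turns came without P7 replicate 3 or MB replicate 1 for Gfap, P7 replicate 1 for Gjb6 and Mlc1, P7 replicate 2 or 3 for Atp1b2 and MB replicate 1 for Ndrg2. The cause of these shifts was not tested.

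Lower calls in MB ranged from 10 to 13 against P7 and from 19 to 21 against P14 with 1 library left out, and members staying high from 11 to 14. Replicate numbers did not pair the libraries: of 30 pairs sharing a number, 6 had deviations correlated above 0.1, with r from -0.312 to 0.332. DESeq2 size factors shifted the median of all genes by at most 0.02. Dao was not testable with P1 and E15.5, or MB and P7, fitted alone, and 1 counting set gave no value for P7. Few reads limit what can be seen for Dao and Gjb6 at E15.5.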
